A study of Auxenochlorella pyrenoidosa with 12 samples.

Results

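The transcripts described here are 100 contigs of Chlorella pyrenoidosa whose level fell at each of the 4 steps between sampling days of a culture exposed to potassium peroxymonosulfate (PMS), chosen from 30814 contigs in all. A contig is a transcript put together from the reads themselves, without a genome. Each level was taken as the mean of log2(FPKM + 1) over the 2 libraries of a group, where FPKM stands for the fragments of a contig relative to its length and to all fragments of its library. A contig had to lie within 1 of the control on day 0 on that scale and then decline from day 0 to 3, 6, 9 and 12. Of the 653 contigs that did so (2.12% of the table), the 100 with the largest smallest step were taken. All 12 libraries entered this choice, so the levels and steps of these 100 contigs are given as a description. Counts of members from a limma fit, given further below, are part of that description and support nothing.

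The alga (Auxenochlorella pyrenoidosa in the organism label) is a unicellular freshwater green alga. Treated groups received PMS at 8.49 mg/L, or 0.5 of the concentration with a median effect in the acute test of the study. RNA of whole cells was sequenced on day 0 and on days 3, 6, 9 and 12 of the exposure. The control received no PMS, and its label does not settle the day on which it was sampled. Each of the 6 groups held 2 libraries, and whether these came from separate cultures is not stated. Untreated cultures of the later days are not analysed here, so exposure and culture age cannot be told apart after day 0. Nor can they between the control and day 0, as long as the day of the control is not settled.

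PMS is an oxidant used in water treatment that gives rise to reactive oxygen and sulfate radicals and is itself used up as it reacts. The level of an RNA reflects how fast it is made and how fast it is broken down. FPKM shows only its share of the library, so a transcript can also fall because others rose. The deposited table carries no gene names and no sequences were used, so the contigs are not identified here. Members are described by their rank in the rule, and IDs are printed for ranks 1 and 2 only. Roles, pathways and sequences of the members are not given.

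The 100 contigs were mostly well-expressed transcripts of untreated cells. In the control their median was 16.6 FPKM in library 1 and 17.0 FPKM in library 2, against 4.86 and 4.67 FPKM over the 17653 contigs that averaged 1 FPKM or more, called tested contigs below. In the control 90 members lay above the median of those contigs, 70 had 10 FPKM or more and 18 had 100 FPKM or more. The rule itself favours such contigs, since a step on the log2(FPKM + 1) scale shrinks at low FPKM. Altogether 97 members passed the minimum mean of 1 FPKM of these, and the other 3, at ranks 17, 43 and 86, had means of 0.989, 0.913 and 0.690 FPKM.

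The members stood slightly higher on day 0 than in the control and then declined to well below it. Their median was 21.0 and 20.3 FPKM in the day 0 libraries and had dropped to 10.2 and 9.24 FPKM by day 3. Day 6 gave 7.79 and 6.97 FPKM, day 9 gave 6.26 and 5.74 FPKM, and day 12 gave 4.50 and 5.07 FPKM. No treated library overlapped with a library of another sampling day in this median. Over the same libraries the median of all 17653 contigs went from 4.91 and 4.75 FPKM on day 0 through 2.80 and 2.35 FPKM on day 3 back to 4.54 and 4.34 FPKM on day 12. In FPKM as deposited, the members and the median contig thus moved the same way to day 3 and apart afterwards, whereas with rescaled libraries, described below, the median contig rose slightly in the first step.

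**Figure D1:**
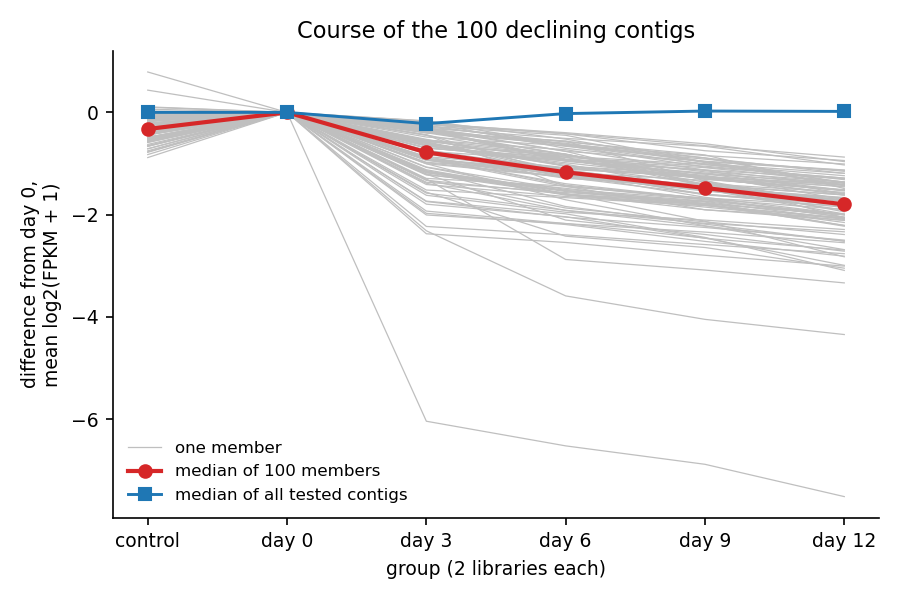
Difference from day 0 in mean log2(FPKM + 1) for each of the 6 groups of 2 libraries. Thin lines are single members, circles the median of the 100 members and squares the median of the 17653 tested contigs; the members' median ends 1.80 below day 0, and 1 member drops by 6.04 on day 3.

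In FPKM as deposited, the first step was the largest for most members and the later ones were smaller. From day 0 to day 3 the median fall was 0.78 on the log2(FPKM + 1) scale, with an interquartile range of 0.44 to 1.18. The 3 later steps had medians of 0.35, 0.27 and 0.26. In FPKM, the median member held 54.3% of its day 0 level on day 3, then 75.8%, 78.7% and 79.5% of the level of the sampling day before. The first step was the largest of the 4 in 73 members, the step to day 6 in 12, that to day 9 in 9 and that to day 12 in 6. It took a median of 44.1% of the whole log2 fall, and in 41 members more than 0.5 of it. With libraries rescaled by their median ratio this ranking turned: the step to day 6 was the largest in 72 members and the first in 19, with medians of 0.26, 0.60, 0.33 and 0.23 for the 4 steps in order.

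Few of the declines were even in FPKM as deposited. The ratio of a member's smallest to its largest step had a median of 0.251, and it reached 0.5 in 6 of the 100 members. The smallest step, which set the rank, was the last in 38 members, that to day 9 in 35, that to day 6 in 23 and the first in 4. The 4 members limited by the first step had a median of 3.44 FPKM on day 0, while the other classes had medians of 19.2 to 23.3 FPKM. For FPKM as deposited, a steady decline at every sampling day therefore describes the direction of the members better than its pace. With rescaled libraries, described below, 28 of the 100 members did not fall in the first step, while all fell in the later steps. For those 28 the first step was then the smallest. The ratios of the steps were not counted with that scaling.

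**Figure D2:**
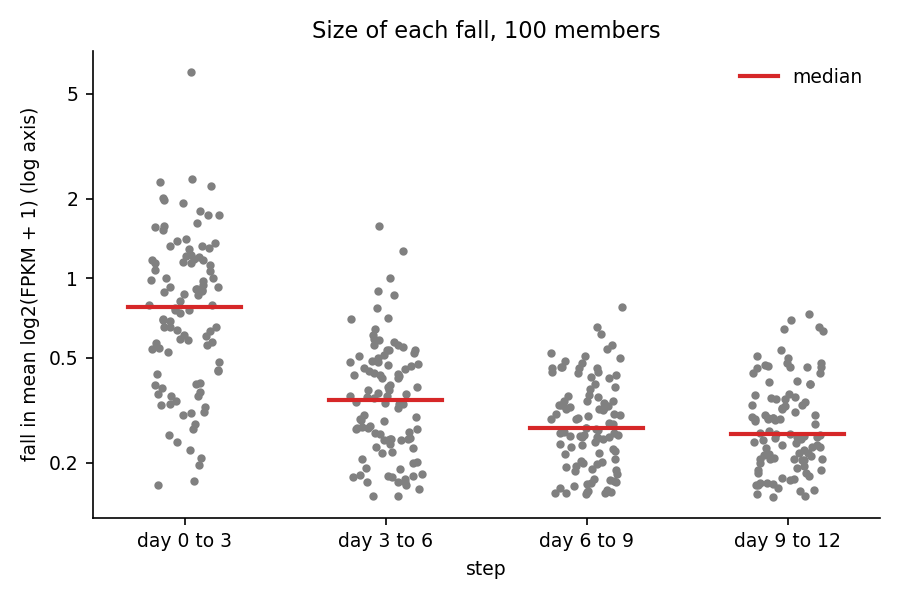
Fall in mean log2(FPKM + 1) of each of the 100 members (points) in each step between sampling days, on a log axis, with the median as a bar. Medians are 0.78, 0.35, 0.27 and 0.26, and no step is below 0.149182, the smallest step of rank 100, because members were taken from the largest smallest step down.

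By day 12 the members held a median of 23.5% of their day 0 FPKM. Of the 100 members, 2 held more than 50%, 42 held 25% to 50%, 34 held 12.5% to 25% and 22 held 12.5% or less. Among the last were 2 members listed at 0 in both day 12 libraries, at ranks 12 and 43, for which no fold is given. Against the control the median was 30.6% on day 12 and the highest value 57.7%. Both day 12 libraries lay below both control libraries in all 100 members, beside 46.7% of all tested contigs, a comparison that the rule nearly fixes.

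TRINITY_DN12225_c0_g1_i1_1 had the largest smallest step, 0.51. The control libraries gave 5.83 and 5.98 FPKM, day 0 gave 9.69 and 14.2 FPKM and day 3 gave 4.38 and 5.80 FPKM. Day 6 followed with 4.30 and 2.38 FPKM, day 9 with 2.40 and 1.50 FPKM and day 12 with 1.12 and 0.524 FPKM. Both day 0 libraries lay above the control. The decline was clear between the ends of the course, but its day 6 library 2 lay just below day 9 library 1, so the libraries of those days overlapped.

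TRINITY_DN666_c0_g1_i3_2, at rank 2, had a smallest step of 0.47 and declined in full order. Its control libraries had 246 and 275 FPKM and its day 0 libraries 296 and 284 FPKM. Days 3 and 6 had 156 and 133 FPKM and 94.6 and 81.6 FPKM. Days 9 and 12 had 67.0 and 56.5 FPKM and 42.1 and 46.5 FPKM. Each pair lay wholly below the pair of the sampling day before, and the mean fell from 290 ± 8.20 to 44.3 ± 3.13 FPKM (SD, n = 2), 6.55-fold.

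The largest fall of all belonged to the member of rank 4, which was nearly shut off by day 3. The control libraries gave 521 and 544 FPKM, day 0 gave 640 and 680 FPKM and day 3 only 10.3 and 7.88 FPKM. Its first step, 6.04, made up 80.7% of its whole log2 fall. From there the decline was slow, with 6.46 and 5.92 FPKM for day 6, 6.00 and 3.47 FPKM for day 9 and 2.75 and 2.48 FPKM for day 12. Its mean on day 0 was 253-fold that on day 12, and the next largest ratio among members above 0 was 22.0, at rank 8.

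The most abundant member, at rank 69, declined little in proportion. It stood at 1892 and 1989 FPKM in the control and at 2966 and 2512 FPKM on day 0. Later pairs were 2114 and 1891 FPKM (day 3), 1521 and 1444 FPKM (day 6), 1436 and 1206 FPKM (day 9) and 1120 and 1118 FPKM (day 12). Every pair lay below the one before, and day 3 overlapped with the control. It was 2.45-fold lower on day 12 than on day 0, and it was the 30th most abundant contig of the control.

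At rank 39 stood the member with the most even steps, which were 0.21, 0.21, 0.24 and 0.22. Its control libraries gave 17.9 and 17.7 FPKM, those of day 0 19.6 and 18.4 FPKM, and each day 3 library 16.3 FPKM. Later pairs were 15.3 and 12.8 FPKM (day 6), 11.3 and 12.2 FPKM (day 9) and 10.9 and 8.96 FPKM (day 12). The pairs did not overlap at any step, and its fall from day 0 to day 12, 0.87, was the smallest of the 100.

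The weakest evidence came from the lowest members. At rank 86 the day 0 libraries read 0.582 and 2.82 FPKM, a difference of 1.27 on the log2(FPKM + 1) scale and the largest between the libraries of a group among the members. The control libraries of that contig gave 0.738 and 0.192 FPKM. Later pairs were 0.773 and 0.950 FPKM (day 3), 0.330 and 1.08 FPKM (day 6), 0.332 and 0.319 FPKM (day 9) and 0 and 0.156 FPKM (day 12). Day 0 library 1 lay below both day 3 libraries, so the falls of its mean from day 0 to days 3 and 6 rest on day 0 library 2, while both libraries of days 9 and 12 lay below both of day 0. The number of reads behind such values is unknown.

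**Figure D3:**
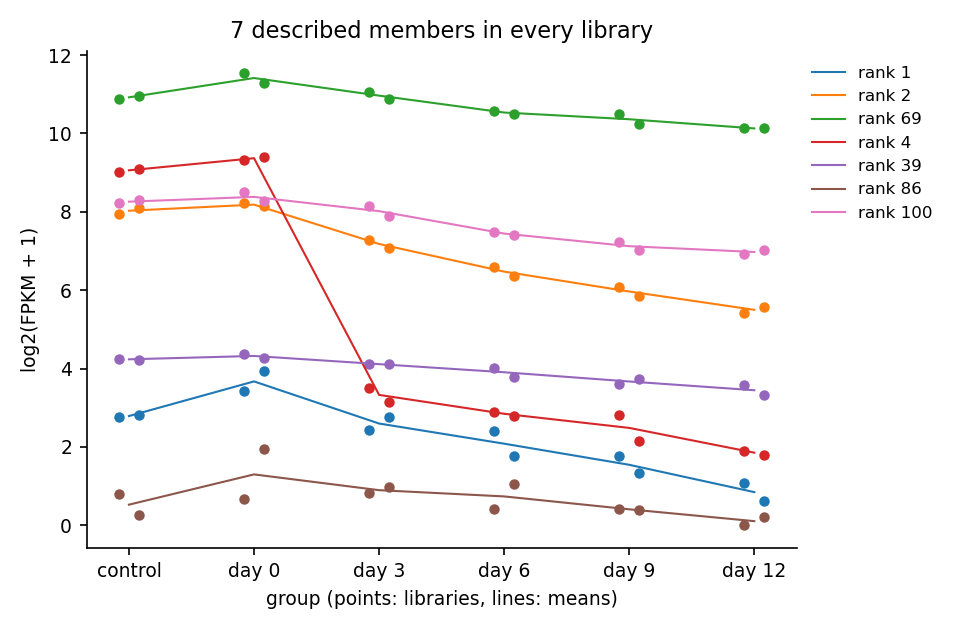
log2(FPKM + 1) of 7 described members in each of the 12 libraries (points), with lines through the group means. Rank 4 falls from 9.37 to 3.33 in 1 step, rank 39 by less than 1 over the whole course, and the 2 points of rank 86 on day 0 are 1.27 apart.

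Members just inside and just outside the limit hardly differed in the quantity that ranked them. At rank 100 the smallest step was 0.149182 and at rank 101 0.148594. The contig of rank 100 went from 360 and 307 FPKM on day 0 to 120 and 130 FPKM on day 12. That of rank 101 went from 30.2 and 31.7 FPKM to 11.8 and 12.0 FPKM. The 553 declining contigs beyond the limit had a median smallest step of 0.05, against 0.19 in the members, and a median of 14.8 FPKM on day 0.

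On day 0 most members stood slightly above the control. The mean was higher on day 0 in 93 of the 100 members, beside 52.4% of the tested contigs within 1 of the control. The members' median difference was 0.33, with a range of -0.79 to 0.88 on the log2(FPKM + 1) scale. Both day 0 libraries lay above both control libraries in 70 members, beside 33.2% of all tested contigs. The rule used the day 0 level, both in the limit against the control and in the first step, so nothing is read from these shares. Whether the rule raised them was not tested. By day 3 the mean of 90 members was below the control, a count with no share of all tested contigs beside it. In 79 members both day 3 libraries lay below both control libraries, beside 52.7% of all tested contigs.

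Not every member declined library by library. In 42 of the 100 members both libraries of each sampling day lay below both of the day before, beside 0.549% of the 17653 tested contigs (97 contigs). A further 36 members were in order at 3 of the 4 steps, 13 at 2, 7 at 1 and 2 at none. The libraries did not overlap in 92 members from day 0 to day 3 and in 80 from day 3 to day 6, beside 48.2% and 25.8% of all tested contigs. For day 9 and day 12 the counts were 71 and 66, beside 24.0% and 24.4%. Among the 78 members with 10 FPKM or more on day 0, 39 were in full order, and among the 22 below that level 3 were.

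Few of the late steps passed the adjusted threshold. The median steps to day 9 and day 12, 0.27 and 0.26, compare with a median difference between the libraries of a group of 0.12, 0.19 and 0.13 on days 6, 9 and 12 over the members. In a limma fit of all tested contigs, with Benjamini-Hochberg adjusted p under 0.05, 82 of the 97 tested members were lower on day 3 than on day 0, beside 41.1% of all tested contigs. For day 6 against day 3 it was 34, beside 14.4%. For day 9 against day 6 it was 3, beside 1.50%, and for day 12 against day 9 it was 5, beside 1.94%. At an unadjusted limma p under 0.05 the last pair of counts was 30 and 28, beside 9.42% and 11.2% of all tested contigs. All 97 were lower on day 12 than in the control, beside 37.8%. The rule used each of the steps and nearly fixes the contrast of day 12 with the control. The counts thus describe how far the chosen falls exceeded the spread and support nothing.

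The counts for the steps to days 6, 9 and 12 depended on single libraries, and so did the share of all tested contigs called lower. Those for day 3 against day 0 and for day 12 against the control stayed within 1.5 times with any library left out. For day 6 against day 3 the limma count was 20 with day 3 library 1 left out, 21 with day 6 library 1 left out and 14 with day 6 library 2 left out, beside 11.7%, 10.8% and 10.4% of all tested contigs. For day 9 against day 6 leaving out day 9 library 1 gave 14 and leaving out day 9 library 2 gave 1, beside 4.45% and 0.565%. The count was 0 without either library of the control, of day 6 or of day 12, beside 0.108% to 0.791%, with 10 to 26 members at an unadjusted limma p under 0.05 in those 6 fits, beside 4.58% to 8.69%.

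For day 12 against day 9 leaving out day 9 library 2 gave 19 and day 9 library 1 gave 1, beside 5.30% and 0.644% of all tested contigs. Either day 3 library gave 11, beside 3.05% and 3.10%, and either day 6 library gave 2, beside 0.617% and 0.591%. It was 0 without either library of the control or of day 12, beside 0.0115% to 0.420%, with 21 to 24 at an unadjusted limma p under 0.05, beside 7.29% to 9.61%. Of the 100 members, 97 or 98 were tested in these fits.

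How deposited FPKM values are scaled decided the first step for some members. When libraries were rescaled by their median ratio, the median of all tested contigs in the first step shifted by 0.35 on the log2(FPKM + 1) scale, from a fall of 0.22 to a rise of 0.13. The members' median fall in that step became 0.26, and 28 of the 100 no longer fell from day 0 to day 3. The step from day 3 to day 6 became larger, 0.60, and all 100 members still fell in it and in the steps to day 9 (0.33) and day 12 (0.23). The limma count for day 3 against day 0 was then 31 lower and 4 higher, and 31.5% of all tested contigs were lower, so the members' share of 32.0% was at the background. For day 6 against day 3 it was 64 lower, beside 22.3%. With rescaled libraries 21 members, in place of 42, had all treated libraries in order. The share of all tested contigs in order was not counted with rescaled libraries, so nothing is read from that count. The median fall from day 0 to day 12 was 1.80 as deposited and 1.54 with rescaled libraries, and the rule nearly fixes its direction.

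The members together lost most of their share of the library. They held 1.72% ± 0.0302 of the total FPKM in the control and 2.00% ± 0.0623 on day 0 (SD, n = 2). Day 3 gave 1.10% ± 0.0295 and day 6 gave 0.834% ± 0.0208 (SD, n = 2). Day 9 gave 0.772% ± 0.0447 and day 12 gave 0.655% ± 0.0113 (SD, n = 2). Libraries of neighbouring sampling days did not overlap in this share. Total FPKM of the libraries ranged from 487140 to 603105. The 5 most abundant members made up 56.5% of the members' sum in the control and 63.9% on day 12. Without the most abundant member the share was 1.35% and 1.38% in the control libraries and 0.419% and 0.434% in the day 12 libraries. Every member was chosen for falling at each step, so a decline without that contig is no separate result.

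**Figure D4:**
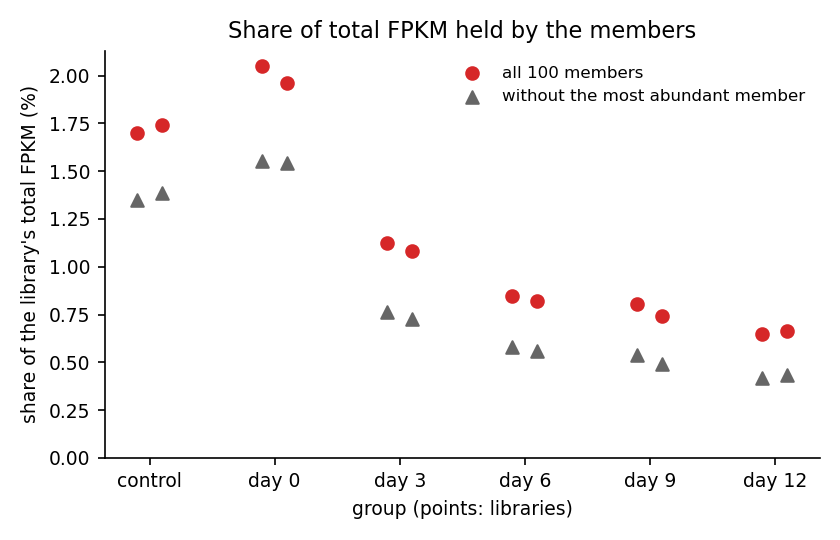
Share of each library's total FPKM, in percent, held by the 100 members (circles) and by the 99 members other than the most abundant (triangles), with 1 point per library in 6 groups. The share is 2.05% and 1.96% in the day 0 libraries and 0.647% and 0.663% in the day 12 libraries.

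The libraries of a group differed in these contigs in ways that the rule did not use. On day 3, 80 of the 100 members were higher in library 1, with a median difference of 0.21 on the log2(FPKM + 1) scale, while 52.4% of all tested contigs were higher there, with a median of 0.01. On day 9, 71 members were higher in library 1, with a median of 0.14, against 43.5% of all tested contigs and a median of -0.07. Day 6 gave 70 members and 50.9%. In the control 25 members were higher in library 1, against 47.5%. Day 0 and day 12 were closer to balance, with 50 and 42 members, against 55.9% and 49.6% of all tested contigs. The members share their libraries, so these counts describe single pairs of libraries.

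**Figure D5:**
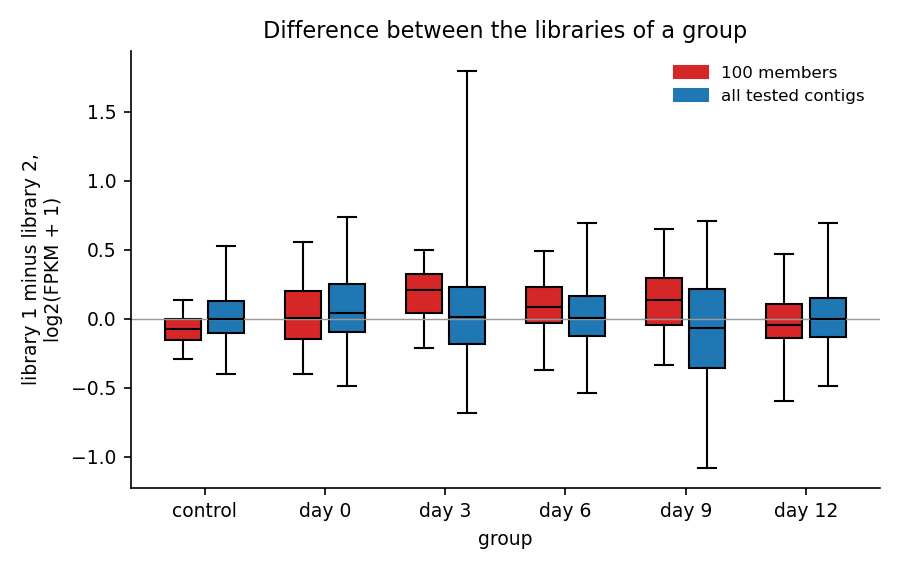
Difference between library 1 and library 2 of each group in log2(FPKM + 1), for the 100 members (left box of each group) and the 17653 tested contigs (right box). Boxes span the quartiles with the median as a line, and whiskers reach the 5th and 95th percentiles; the members' medians lie at 0.21 on day 3 and 0.14 on day 9.

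The course was also compared with its mirror image. Rising at every sampling day, with day 0 near the control, was more frequent in the table than declining, with 2926 contigs (9.50%) against 653 (2.12%). Among the tested contigs it was 1185 (6.71%) against 620 (3.51%), and at a mean of 5 FPKM or more 522 against 444. Of the 2926, 838 had every step at least as large as the smallest step of rank 100. With rescaled libraries 2739 contigs rose and 679 declined. Of the 2926 rising contigs, 1692 read under 0.01 FPKM in each control library and each day 0 library. The frequencies of the 2 courses were not tested against each other.

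Contigs that share a name with a member were examined because the rule did not choose them. Each ID closes with a number, 1 to 4, that no source used here explains. It is called the appended number below. The 100 members carried 100 different Trinity gene names, and 70 other contigs had one of these names. Each had another appended number than its member, as it must, since no name and number occur together more than once. Whether such contigs come from the same gene is not known. Of these 70 contigs, 40 were tested for day 12 against day 0, and 10 fell and 16 rose (limma, Benjamini-Hochberg adjusted p under 0.05), beside 38.7% and 37.2% of all tested contigs. Of the 70, 1 declined at every sampling day, from a mean of 196 FPKM on day 0 to 89.5 FPKM on day 12. At every sampling day 10 rose. The shares of the whole table were 2.12% declining and 9.50% rising. The 2.12% counts the 100 members, which by definition are not among the 70, and without them 553 declining contigs remain.

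Namesakes of ranks 2, 4 and 100 are given as examples, with no test of a difference from the member. The contig that shares its name with rank 2, apart from the appended number, had 58.3 and 59.8 FPKM on day 0. It read 229 and 31.8 FPKM on day 12, and its change did not pass the test (log2 change 0.53, SE 0.84, limma adjusted p = 0.577). Its day 12 libraries thus lay on both sides of day 0. For rank 4, a namesake with another isoform number in its ID rose from 25.3 and 28.4 FPKM on day 0 to 83.1 and 86.5 FPKM on day 12 (log2 change 1.62, SE 0.12, limma adjusted p = 2.5e-06, n = 2 libraries per group). A further namesake of rank 4 went from 4.21 and 2.74 FPKM on day 0 to 3.07 and 2.48 FPKM on day 12 and did not pass the test (log2 change -0.23, SE 0.18, limma adjusted p = 0.268). The namesake of rank 100 was below the minimum for testing, with day 0 libraries at 0.450 and 1.08 FPKM, a highest mean of 2.01 FPKM on day 6, and day 12 libraries at 0.199 and 0 FPKM. Separately, 18 other contigs shared both the component name and the appended number of a member. Of them 0 declined at every sampling day, beside 2.12% of the whole table with the members counted. Nothing is read from so few contigs.

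The members were spread unevenly over the appended numbers. The number 1 closed the IDs of 35 members, 2 those of 28, 3 those of 19 and 4 those of 18. Among the 17653 tested contigs these numbers made up 19.2%, 25.9%, 25.9% and 29.0%. All 653 declining contigs divided into 225, 168, 151 and 109 in the same order. The 2926 rising contigs divided into 74, 986, 388 and 1478. Both lists come from the whole table, of which the numbers made up 16.9%, 26.9%, 21.8% and 34.4%. Of the contigs with each number, 16.6%, 36.4%, 15.5% and 31.6% read under 0.01 FPKM in each control and day 0 library. These are descriptions of the names in the table, with no test.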

How the data were processed

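RNA of 12 libraries (6 groups of 2) was analysed. The authors deposited FPKM values, 1 column per library, for contigs named as by the Trinity assembler, per the file headers. The library kit was Illumina TruSeq, per the labels' protocols. No source used here names the aligner, abundance program, filters or annotation. Groups were read from the titles and the treatment label. Read depth is unknown, so no counting intervals are given, and 2 libraries per group limit precision. Since no label states separate cultures, p-values reflect only differences among these libraries, possibly technical ones.

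Members were ranked on log2(FPKM + 1) as stated in the report. Members and lists were chosen with earlier results of these data known. Limma 3.58.1 in R 4.3.3 (intensity trend, group means, 6 residual degrees of freedom, Benjamini-Hochberg over the 17653 contigs that averaged 1 FPKM or more) was tested on simulated data. Fold changes on the log2(FPKM + 1) scale understate changes of low contigs. Python 3.11.15 was used for the rest. An exact permutation test of 2 libraries against 2 cannot go below a two-sided p of 0.333 and was not used. Named contigs are the 2 of highest rank. Others were described by fixed criteria: highest control level, largest fall, most even steps, largest difference within a group, and the limit of the ranking. The namesakes described, and the examples at ranks 8, 12, 17 and 43, were picked after their values were seen. The planned lists of gene functions could not be counted, since the table names no genes. Alternatives were another pseudocount (0.1), rescaled libraries, no or a stricter filter, each library left out and the replicate number as a block.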

Additional observations from a re-analysis of the deposited data

How the results depend on the processing

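The median fall from day 0 to day 12 kept its direction under each alternative of the pseudocount, the scaling and the libraries. The rule nearly fixes this, since the members were chosen for falling. The size of the fall moved beyond the spread between libraries under the pseudocount and the scaling. The median change was -1.80 as reported, -2.07 at a pseudocount of 0.1, -1.54 with rescaled libraries and -1.82 to -1.75 with a library left out. The contigs taken changed: the same rule took 50 of the 100 again with rescaled libraries, 69 at a pseudocount of 0.1, 79 among contigs with a mean of 5 FPKM or more and 56 to 99 with a library left out. Leaving out day 9 library 1 gave 56, day 9 library 2 gave 60 and day 12 library 2 gave 66. In every fit with a library left out 72 members still declined at each step and 14 were still taken. With rescaled libraries the limma counts of members called lower became 31 for day 3 against day 0, 64 for day 6 against day 3 and 1 for day 12 against day 9. The shares of all tested contigs were 31.5%, 22.3% and 0.954%. With that scaling 21 members had every library in order, a count with no share of all tested contigs beside it. For day 12 against day 9 the count was 3 at a pseudocount of 0.1, beside 0.980%. With a library left out the counts ranged from 14 to 40 for day 6 against day 3, 0 to 14 for day 9 against day 6 and 0 to 19 for day 12 against day 9, where the remaining library of a group is assumed to vary like the others. With the replicate number as a block the counts were 83, 32, 1 and 3 for the 4 steps in order, in place of 82, 34, 3 and 5, beside 41.0%, 13.7%, 1.02% and 0.799% of all tested contigs. Whether the replicate numbers pair libraries across groups is not stated. Differences between libraries 1 and 2 correlated between groups from -0.19 to 0.41, over 0.1 in 3 of 15 pairs of groups. Such correlations cannot decide it. The causes were not tested. The 653 declining contigs became 627 at a pseudocount of 0.1, 679 with rescaled libraries, 566 to 713 with a library left out and 444 among contigs with a mean of 5 FPKM or more, and the counts for day 12 against the control and for the namesakes stayed within 1.5 times.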

Other observations

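A small set of members was taken again by the rule in every fit with a library left out. These 14 contigs ranked between 2 and 83, and their median went from 21.7 FPKM in the control and 28.3 FPKM on day 0 through 15.5, 10.6 and 8.85 FPKM on days 3, 6 and 9 to 7.31 FPKM on day 12. With rescaled libraries 8 of the 14 were taken too, and 6 contigs, at ranks 2, 6, 9, 19, 25 and 54, were taken under every alternative of the rule. On day 12 those at ranks 6, 9 and 19 held 20.6%, 19.2% and 21.0% of their day 0 FPKM, and those at ranks 25 and 54 held 24.9% and 27.4%. This list was picked on the values it describes and has no test.

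The appended number of the contig IDs went with the course of the whole table as well as with the members. Among tested contigs that end in 1, the median change from day 0 to day 12 was -0.29 on the log2(FPKM + 1) scale, and 6.22% declined at every sampling day while 1.94% rose. For contigs that end in 4 the median change was 0.49, with 2.03% declining and 9.18% rising. The step from day 0 to day 3 had a median of 0.06 for the number 1, -0.37 for 2, -0.43 for 3 and -0.12 for 4. No source used here says what the number stands for. The pattern was noticed in the data and not tested.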
